A study of Mus musculus with 16 samples.

Results

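Bortezomib, a drug that blocks the catalytic sites of the proteasome, was given to NIH3T3 mouse fibroblasts, and RNA collected at 405 min was compared with RNA of untreated cells taken at 0 min (control). The comparison used 8 of the 16 libraries of the series, which were the 4 titled for bortezomib at 405 min and the 4 titled for the control, and it covered all genes. Per the labels, cells of both groups were of the NIH3T3 line and differed in stress (bortezomib or none) and time. Per the study's methods, the cells stably carried DD-sfGFP, a green fluorescent protein fused to a destabilizing domain that the proteasome degrades unless the ligand Shield-1 is bound, and they had been sorted for high GFP. The dose was not given in the labels, and vehicle-treated cells at 405 min were not analysed here, so drug and elapsed time cannot be told apart. The question was which genes separated the 4 treated libraries from all 4 controls.

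When the proteasome is blocked, ubiquitylated and misfolded proteins build up in the cell. Heat shock factor 1 (Hsf1) is then freed from chaperones and binds heat shock elements, repeats of the letters GAA and their reverse complement TTC, in the promoters of chaperone genes. Blocked proteasomes also stabilize short-lived transcription factors, among them p53, Nrf2 and Nrf1, whose targets include cell cycle inhibitors, antioxidant enzymes and proteasome subunits.

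The treated libraries were not of one kind. Ribosomal protein genes, here the 97 symbols that start with Rpl or Rps and a digit, took up 6.78%, 0.907%, 4.25% and 8.59% of the fragments in 405 min replicates 1 to 4, and 0.541%, 1.21%, 0.441% and 0.398% in control replicates 1 to 4. The means were 5.13 ± 3.33% and 0.648 ± 0.379% (SD, n = 4 each), and the groups overlapped because 405 min replicate 2 lay inside the control range (2-sided exact permutation p = 0.0571). Counting error was small beside this, since the 95% Wilson interval of replicate 2 was 0.886% to 0.928% and the widest half-width was 0.0336 percentage points, in 405 min replicate 3. Not every such symbol need be a ribosomal protein. A stricter symbol pattern kept 73 of the 97, with mean shares of 4.80% at 405 min and 0.564% in control. Depth was 861482 to 891245 fragments in the controls, and 15213857, 769641, 1385229 and 19930375 in 405 min replicates 1 to 4. Olfactory and vomeronasal receptor genes, which fibroblasts are not known to use, held 4.16% to 5.02% of fragments in the controls and 0.338%, 5.13%, 2.62% and 0.00774% in 405 min replicates 1 to 4. Fibroblast markers summed to 0.0393% to 0.180% in the controls and to 2.0%, 0.118%, 0.355% and 1.59% at 405 min. The 19 markers of blood, epithelium, endothelium, neurons, liver, muscle and pancreas summed to 0.0506% to 0.0554% in the controls, with 1 to 5 of them at 0, and to 0.00316%, 0.0479%, 0.0263% and 0.000386% at 405 min, with 2, 1, 3 and 14 at 0. Per the labels all 8 libraries were of the NIH3T3 line, and the source of these marker counts was not tested. In RNA of whole cultures, fewer cells and less RNA per cell cannot be told apart. Across tested genes, replicate 2 at 405 min correlated with the controls at r = 0.596 to 0.827, and the controls correlated with one another at 0.576 to 0.792. With 405 min replicates 1, 3 and 4, replicate 2 correlated at 0.338, 0.673 and 0.208, so its correlation with replicate 3 lay inside both ranges. The part that these differences between libraries had in the results was not tested. Values below are therefore given with replicate 2 named, since it was the treated library whose composition was like that of the controls.

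**Figure D1:**
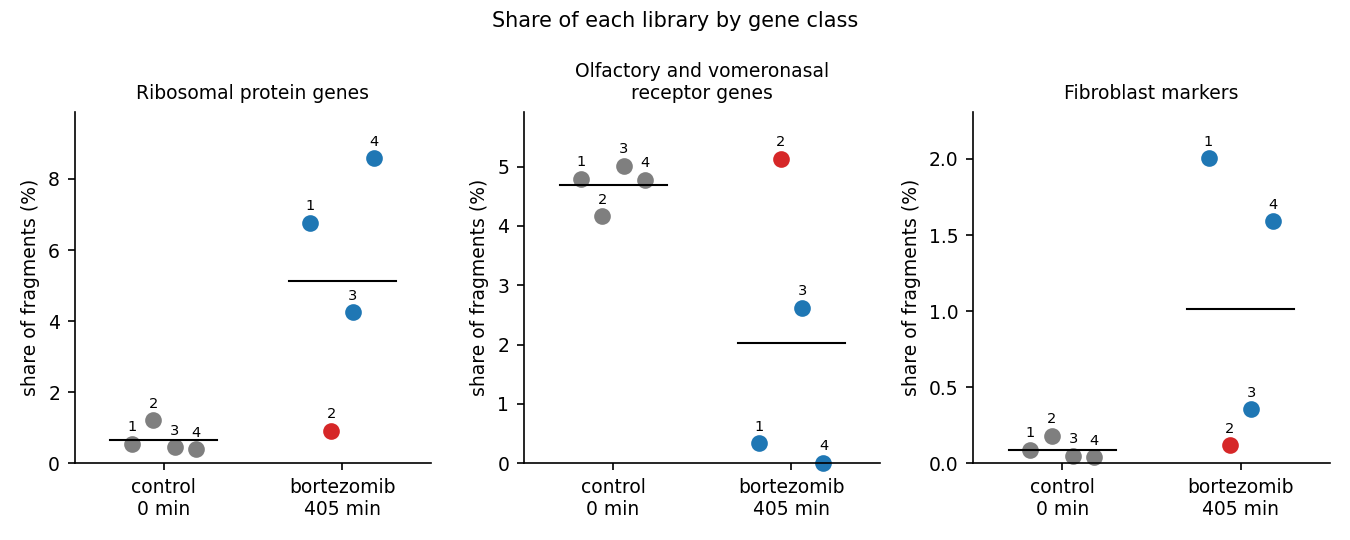
Share of fragments (%) held by the 97 symbols that start with Rpl or Rps and a digit, by olfactory and vomeronasal receptor genes and by fibroblast markers in the 4 control and 4 bortezomib 405 min libraries. Each point is a library with its replicate number, the line is the group mean, and 405 min replicate 2 is red. Its ribosomal protein share of 0.907% sits within the controls, and the other treated libraries sit at 4.25% to 8.59%.

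Chaperone genes of the heat shock response stood furthest apart. Hspa1b, Hsph1, Hspa8 and Hspa4l of the Hsp70 and Hsp110 families and the cytosolic chaperone Hsp90aa1 lay higher in all 4 treated libraries than in any control, and they held the 5 widest separations of all 5030 genes tested. Levels are counts per 1000000 over the tested genes, scaled by TMM (CPM). Separations and the exact permutation test of genes used log2(CPM + 1), and the tests of edgeR and DESeq2 used rounded counts. A gene counted as separate when its lowest treated library lay above its highest control, or the reverse, and the gap is that distance on the log2 scale. Tested genes were those counted at least once in each of the 16 libraries. With 4 libraries against 4, the exact permutation test of 1 gene cannot go below p = 0.0286, which is the value of every separate gene here. The labels do not say whether replicates were separate cultures, so p-values measure the spread between these libraries only.

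Hspa1b, the inducible Hsp70, had the widest separation of all. It was counted at 43111, 994, 13987 and 117572 fragments in 405 min replicates 1 to 4 and at 22, 42, 33 and 17 in control replicates 1 to 4. In CPM these were 4904, 1814, 17116 and 12741 against 35.4, 70.2, 51.6 and 28.3. Every treated library lay far above every control, and replicate 2 was the lowest of the treated. On the log2(CPM + 1) scale the mean was 12.7 ± 1.47 at 405 min and 5.48 ± 0.567 in control (SD, n = 4 each), with a gap of 4.67. The log2 fold change of edgeR's quasi-likelihood test was 7.62 (SE 1.73, adjusted p = 0.285). With replicate 2 as the only treated library, in a fit whose spread came from the 4 controls, it was 5.26 with an adjusted p of 8.47e-05, and this was the 1 gene of 5030 (0.0199%) called in that fit. The lone treated library is assumed there to vary like the controls. Hspa1a encodes a nearly identical protein and shares most of its sequence with Hspa1b, so the split of fragments between the 2 is uncertain. Hspa1a itself was outside the test and was also higher in all 4 treated libraries.

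Hsp90aa1, the inducible cytosolic Hsp90, had the second largest gap. Its CPM was 20318, 3435, 24585 and 42452 in 405 min replicates 1 to 4 and 307.2, 638.3, 289.3 and 121.7 in the controls. The log2 fold change was 6.06 (SE 1.87, adjusted p = 0.285 by edgeR's quasi-likelihood test) with a gap of 2.43, and it was 3.33 for replicate 2 alone, at an adjusted p of 0.0598. Hsph1, the Hsp110 that recharges Hsp70 with nucleotide, was even across the controls, at 45.0, 56.8, 50.0 and 53.3 CPM. At 405 min it stood at 8929, 288.4, 917.8 and 9738 CPM, for which edgeR gave a log2 fold change of 6.60 with SE 1.48 and an adjusted p of 0.285. Replicates 1 and 4 were thus an order of magnitude above replicate 3, and replicate 2 was the lowest treated library. Hspa8, the constitutive Hsp70 (Hsc70), stood at 41421, 848.8, 3404 and 39561 CPM against 228.4, 237.3, 157.9 and 203.4 in the controls. Its log2 fold change was 6.69 (SE 1.96), and 2.01 for replicate 2 alone. Hspa8 was the gene with most fragments in 405 min replicate 1, at 2.39% of the library, and Hsp90aa1 was in replicate 4, at 1.97%. Hspa4l, a further Hsp110 relative, stood at 816.1, 147.8, 315.7 and 1427 CPM against 36.8 to 43.3 in the controls.

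Promoter sequence is shown for 3 chaperone genes that lay above every control, because heat shock elements are the sites through which Hsf1 acts on such genes. Each promoter was taken from those holding the letters of such an element, so that a match is present was fixed by the choice. Hsph1 has 2 starts in this source, and the first with a match is shown. Hspe1 was outside the test. The sequences are RefSeq's on build GRCm38.p6, they are written in the direction of the gene, and capitals mark GAANNTTC or TTCNNGAA, the paired units of the element, each of which reads the same on both strands. For Hspa1b and Hsph1 the 250 bases before the start of transcription are given, and for Hspe1, the mitochondrial co-chaperonin described further down, the 30 bases around its element.
Hspa1b, chr17:34959239-34959488, minus strand: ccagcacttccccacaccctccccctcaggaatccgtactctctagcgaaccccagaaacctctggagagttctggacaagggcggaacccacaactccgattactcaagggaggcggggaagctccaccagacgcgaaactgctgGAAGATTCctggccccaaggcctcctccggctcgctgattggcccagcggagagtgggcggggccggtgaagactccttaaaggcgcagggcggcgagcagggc
Hsph1, chr5:149636337-149636586, minus strand: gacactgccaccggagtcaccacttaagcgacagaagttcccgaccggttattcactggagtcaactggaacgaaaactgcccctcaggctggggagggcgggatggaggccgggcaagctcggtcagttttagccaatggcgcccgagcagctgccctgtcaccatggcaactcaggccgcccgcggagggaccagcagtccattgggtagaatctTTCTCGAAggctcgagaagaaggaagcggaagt
Hspe1, chr1:55088053-55088082, plus strand: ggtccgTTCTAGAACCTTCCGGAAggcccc

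The match in Hspa1b began 104 bases before the start of transcription and that in Hsph1 began 33 bases before it. In Hspe1 the first of 3 overlapping matches began 89 bases before the start, and together they hold the longer element of 3 units, TTCNNGAANNTTC. The 2-unit letters occurred in 12.8% of the 32851 promoters of that table in the same 250 bases, and the 3-unit letters (GAANNTTCNNGAA or TTCNNGAANNTTC, which contain the 2-unit ones) in 0.466%. Of the 283 genes above every control that had a promoter in the table, 11.3% held the 2-unit letters, beside 11.8% of the 3806 tested genes that had one. Among the 12 genes with the widest separation, 9 had a promoter, and the letters were in those of Hspa1b, Hsph1 and Rlim. A match is a description of these letters, not of a site in use. Hspa8, Hsp90aa1 and Dusp4 were not in the table.

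Over all genes, 376 of the 5030 tested (7.48%) lay above every control in all 4 treated libraries, and 286 (5.69%) lay below. The 376 genes had a median gap of 0.24 and the 286 one of 0.15, and 17 genes above but 1 below were separated by a gap of more than 1, which is a 2-fold distance. No gene passed an adjusted p of 0.05 in edgeR's quasi-likelihood test (0%), where the smallest adjusted p was 0.285 and was shared by 365 genes. Before adjustment, p was under 0.05 for 728 genes with higher levels after bortezomib (14.5%) and for 76 with lower levels (1.51%). This balance turned with the scaling, to 5 higher and 261 lower with ribosomal protein fragments as library size, and it was 67 and 62 with the ribosomal protein share as a covariate. Leaving out 1 library gave 324 to 930 higher and 8 to 292 lower, with 324 and 8 without 405 min replicate 4 and 930 and 292 without 405 min replicate 2. By other tests of the same 5030 genes, DESeq2 called 404 genes higher (8.03%) and 0 lower, with 2828 genes left without an adjusted p, and edgeR's exact test called 12 higher (0.239%) and 0 lower. Of these, 172 of the 404 and 10 of the 12 were among the 376. The 12 of the exact test were Hspa1b, Hsph1, Hspa8, Hsp90aa1, the co-chaperone Dnajb1, the collagen chaperone Serpinh1, the arsenite-inducible zinc finger gene Zfand2a, the autophagy receptor Sqstm1, Gadd45a, Dusp4, Swt1 and the ribosomal protein gene Rpl8. The exact permutation test gave p = 0.0286 for the 662 separate genes and an adjusted p of 0.215.

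Without 405 min replicate 2, 1202 genes lay above every control and 833 below, and without control replicate 2, 677 lay above. Replicate 2 alone, scaled with the 4 controls, lay above all of them at 753 genes (15.0%) and below all of them at 847 (16.8%). Its median log2 fold change was 0.76 over the 376 genes and -0.06 over all tested genes, beside 2.35 and 0.11 with all 4 treated libraries. These 376 were chosen in part by replicate 2, so this difference is a description. Of the 376 genes, those with the largest log2 fold changes in replicate 2 were Hspa1b at 5.26, Hsp90aa1 at 3.33, Fth1 at 3.03 and Hsph1 at 2.46.

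**Figure D2:**
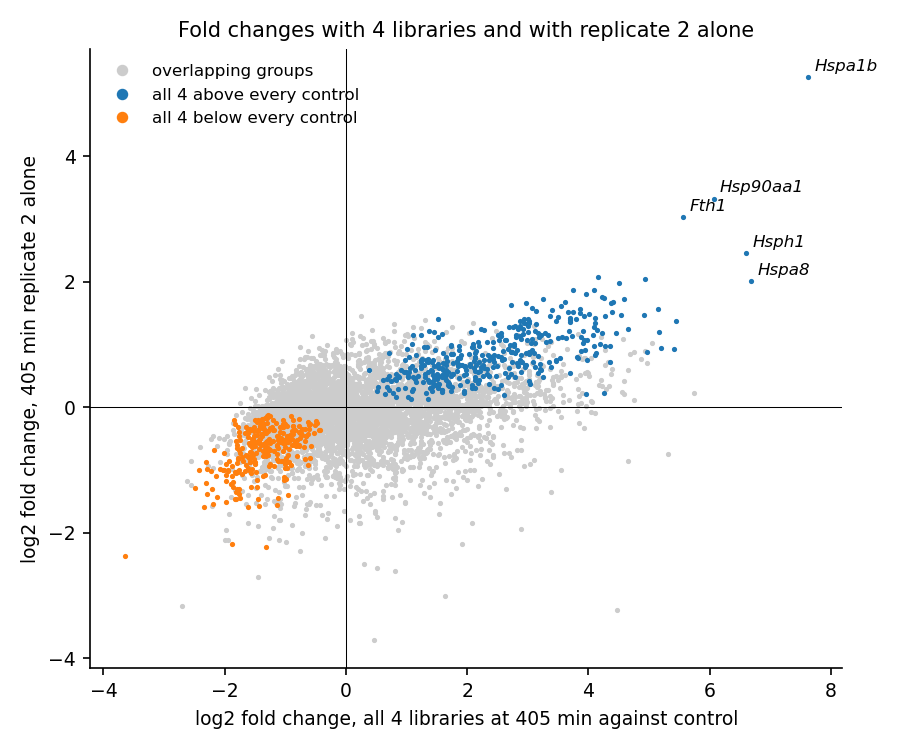
Log2 fold change against control for 5030 tested genes, with all 4 libraries at 405 min (horizontal) and with 405 min replicate 2 alone (vertical). Blue points are the 376 genes above every control, orange points the 286 below. Hspa1b stands apart at 7.62 and 5.26.

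The other genes with the widest separation upwards held several roles. Fth1, the heavy chain of the iron store ferritin, stood at 9626, 1665, 8240 and 19381 CPM against 64.1 to 573.1, so that control replicate 2, the highest, was well above the other controls but still under every treated library. Gadd45a, a growth arrest gene, stood at 386.1, 111.3, 370.8 and 941.8 CPM against 38.6, 23.4, 31.3 and 8.33. Dusp4, a nuclear phosphatase that switches off MAP kinases, stood at 187.2, 102.2, 247.2 and 618.6 CPM against 17.2 to 40.1. For both, the treated libraries lay within an order of magnitude of each other and replicate 2 was the lowest. Dnajb9, an endoplasmic reticulum J-domain co-chaperone, stood at 136.3, 107.7, 467.5 and 574.7 CPM against 14.1 to 46.7. The RNA-binding protein gene Fxr1 (gap 1.66), the ubiquitin ligase gene Rlim (gap 1.23) and Calu, which encodes a calcium-binding protein of the secretory pathway (gap 1.17), completed the 12. Log2 fold changes of these 7 genes ranged from 3.14 for Dnajb9 to 5.57 for Fth1, each with an adjusted p of 0.285 by edgeR's quasi-likelihood test.

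**Figure D3:**
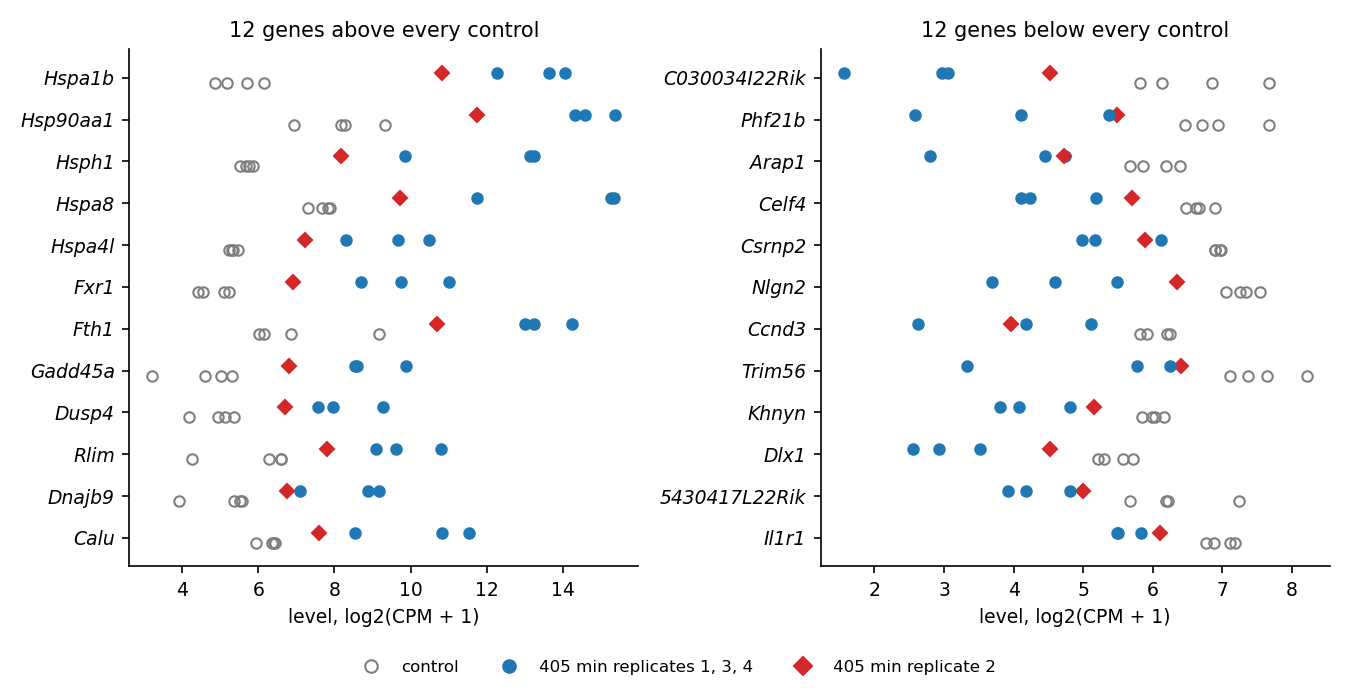
Level in log2(CPM + 1) of the 12 tested genes with the widest separation above (left) and below (right) every control. Grey circles are the 4 controls, blue circles 405 min replicates 1, 3 and 4, and red diamonds 405 min replicate 2. Hspa1b has a gap of 4.67, and the widest gap downwards is 1.29, for C030034I22Rik.

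By gene list, the Hsp70 and Hsp110 chaperones held the largest share of genes above every control. Of 6 tested members of the Hsp70 and Hsp110 list, 5 lay above every control (Hspa1b, Hsph1, Hspa8, Hspa4l and Hspa4) and 0 below, beside 7.48% and 5.69% of all tested genes. The list's median log2 fold change was 5.35, and 1.94 for replicate 2 alone, beside 0.11 and -0.06 over all genes. With ribosomal protein fragments as library size, where the median of all genes was -2.25, the list's median was 1.59, and 3 of its genes lay above every control. Of 7 tested Hsp90 and co-chaperone genes 3 lay above (Hsp90aa1, Hsp90ab1 and Stip1), with a median log2 fold change of 3.50, which was -0.38 with ribosomal protein fragments as library size. Hsp90ab1, the constitutive Hsp90, stood at 16418, 1002, 9659 and 20880 CPM against 205.8, 848.8, 256.5 and 36.7, so replicate 2 was just above control replicate 2. Stip1, the adaptor between Hsp70 and Hsp90, stood at 2130, 54.8, 85.7 and 2522 CPM against 23.3 to 30.1. Of 6 tested J-domain (Hsp40) genes 2 lay above, Dnajc2 and Dnaja1. Dnajb1, the J-domain partner of Hspa1b, overlapped: it stood at 1379, 69.4, 151.7 and 864.7 CPM against 46.7 to 74.0, with replicate 2 under the highest control. Of 5 tested small heat shock protein and Bag genes only Hspb8 lay above, and Bag3, which couples Hsp70 to Hspb8, stood at 40.2 CPM in replicate 2, inside the control range of 27.3 to 75.0. Of 4 tested subunits of the cytosolic chaperonin only Cct3 lay above.

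Chaperones of other compartments showed the same direction in part. Among mitochondrial chaperones, 2 of 6 tested genes lay above every control. Hspd1, the chaperonin Hsp60, stood at 4897, 498.3, 3437 and 5610 CPM against 55.0 to 280.7, and Hspa9, the matrix Hsp70, at 1211, 105.9, 99.1 and 980.2 CPM against 28.1 to 54.7. Hspe1, the lid of Hspd1, was outside the test because it was listed at 0 in control replicate 4, and it was counted at 22378, 122, 1071 and 51842 fragments against 14, 40, 29 and 0. Hspd1 and Hspe1 are transcribed away from each other on chromosome 1. Of 16 tested endoplasmic reticulum genes 6 lay above, beside 7.48% of all tested genes, which were Dnajb9, Pdia3, Hsp90b1, Hspa5, Ero1l and Dnajc3, with a list median of 2.37 and of 0.28 for replicate 2 alone. With ribosomal protein fragments as library size the median turned to -1.11, beside -2.25 over all genes, and 1 gene lay above every control and 1 below. Hspa5 (BiP), the Hsp70 of that compartment, stood at 2398, 127.8, 387.9 and 2014 CPM against 32.8 to 101.7, so its groups were separate but replicate 2 was near the highest control. Ddit3, which encodes the transcription factor CHOP, was outside the test and overlapped, with 3316, 15, 10 and 4695 fragments against 0, 9, 14 and 24.

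Most proteasome genes were outside the test, which required a count in each of the 16 libraries of the series. Of 43 proteasome genes 10 were tested, and Psmd1, Psma3 and Psmd12 lay above every control, beside 7.48% of all tested genes. Psmd1, a subunit of the regulatory particle that feeds proteins into the proteasome, stood at 1111, 173.4, 644.9 and 2712 CPM against 38.6 to 117.0. The median log2 fold change of the 10 tested genes was 3.01, and 0.61 for replicate 2 alone. With ribosomal protein fragments as library size it turned to -0.38, and 0 of the 10 lay above every control. Of 10 tested ubiquitin, AN1 zinc finger and p97 genes, Zfand2a, Zfand3 and Zfand5 lay above. Zfand2a, whose product binds the proteasome in stressed cells, stood at 1957, 171.6, 351.2 and 1347 CPM against 43.4 to 133.4. The median of that list, 2.04, turned to -1.11 with ribosomal protein fragments as library size, where 1 gene lay above every control and 0 below. The polyubiquitin gene Ubb was outside the test and was counted at 36664, 74, 541 and 51878 fragments against 20, 10, 5 and 33, that is 4171, 135.1, 662.0 and 5622 CPM against 7.82 to 55.0. Per 1000 ribosomal protein fragments its groups overlapped, with 9.18 in 405 min replicate 3 and 9.58 in control replicate 4. Of 5 tested autophagy receptor and Atg8 genes only Tax1bp1 lay above. Sqstm1 (p62), which links ubiquitin to autophagosomes, stood at 8623, 63.9, 128.5 and 2458 CPM against 31.3 to 83.6, and replicate 2 lay within the controls.

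Antioxidant genes also stood above the controls in replicate 2. Of 12 tested Nrf2 targets 6 lay above every control in all 4 libraries, Fth1, Prdx1, Me1, Gclm, Mafg and Txnrd1, beside 7.48% of all tested genes. In replicate 2 by itself 8 of 12 lay above every control, beside 15.0% of all genes. The list's median log2 fold change was 2.66, and 0.96 for replicate 2 alone. With ribosomal protein fragments as library size it turned to -0.64, with 2 genes above every control and 1 below. Prdx1, a peroxide-removing enzyme, stood at 1466, 255.5, 859.0 and 3216 CPM against 3.33 to 118.6. Me1, the cytosolic malic enzyme that makes NADPH, was even across the treated libraries, at 159.8, 133.2, 157.9 and 224.0 CPM against 61.1 to 73.5. Gclm, the modifier subunit of the enzyme that makes the glutathione precursor, stood at 443.9, 213.6, 1115 and 606.3 CPM against 38.6 to 147.0. Hmox1, the heme-degrading enzyme often used as a marker of Nrf2, overlapped, with 27811, 23, 57 and 14894 fragments against 25, 26, 13 and 0.

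The p53 targets were divided. Of 13 tested, Ccng1, Mdm2, Trp53inp1 and Gtse1 lay above every control, beside 7.48% of all tested genes, the list median was 1.68, and that for replicate 2 alone was -0.01. With ribosomal protein fragments as library size the median turned to -1.54, with 0 genes above every control and 1 below. Mdm2, the ligase that turns p53 over, stood at 1513, 166.1, 1046 and 2720 CPM against 33.8 to 81.9, and Ccng1 at 1206, 213.6, 584.9 and 2107 CPM against 53.3 to 96.5. Gadd45a, which the paper counts among known p53 targets, was not among the 13. It lay above every control in CPM, with a wider gap than Ccng1 or Mdm2, and was called by edgeR's exact test. Per 1000 ribosomal protein fragments the groups of Gadd45a overlapped. Cdkn1a (p21), the cyclin-dependent kinase inhibitor, overlapped: replicate 3 at 24.5 CPM lay under every control and replicate 2 at 58.4 within them. Of 10 tested genes of the integrated stress response, which follows Atf4, only the asparaginyl-tRNA synthetase gene Nars lay above every control, at 1017, 169.8, 1123 and 1378 CPM against 41.7 to 83.5. Of 9 tested immediate early genes Dusp4, Jun and Klf4 lay above, and of 9 tested sterol synthesis genes Cyp51, Idi1 and Sc5d did. The immediate early median was 0.57, and 0.01 for replicate 2 alone. With ribosomal protein fragments as library size it turned to -2.16. Outside the test, Jund, Egr3 and Dusp2 of that list lay below every control and 0 lay above. Jun, a subunit of the transcription factor AP-1, stood at 661.0, 118.6, 269.2 and 490.1 CPM against 43.4 to 100.1, and Idi1, an isomerase of the mevalonate pathway, at 728.1, 250.1, 1074 and 1708 CPM against 41.8 to 195.5. In both genes replicate 2 was the lowest treated library and lay above the highest control.

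The share of separate genes differed among the other lists. None of 3 tested metallothionein and zinc genes, 5 Bcl2 family genes, 4 oxidative phosphorylation genes or 10 fibroblast markers was separate in either direction. Mt2, the metal-binding metallothionein, was at 675.1, 11.0, 150.5 and 174.4 CPM against 12.5 to 28.9, so replicate 2 was the lowest of all 8 libraries. Vim, the intermediate filament of fibroblasts, was at 456.3 CPM in replicate 2, under the 604.9 of control replicate 2. Of 14 collagen and matrix genes only Postn lay above, and of 11 cell cycle genes Cdk4 lay above and the cyclin gene Ccnd3 below, beside 7.48% above and 5.69% below over all tested genes. Of the 97 symbols that start with Rpl or Rps and a digit, 60 were tested and 11 lay above every control in CPM, with a median log2 fold change of 3.51, and 0.29 for replicate 2 alone. The ribosomal protein and fibroblast medians (3.51 and 3.32) were thus close to that of the Hsp90 list and larger than those of the Nrf2, p53 and endoplasmic reticulum lists. Of the 21 lists that are not ribosomal protein genes, 20 had a larger median with all 4 treated libraries than with replicate 2 alone. Of these 21 medians 19 were above 0 with TMM scaling but 2 with ribosomal protein fragments as library size, those of the Hsp70 and Hsp110 list and of the cytosolic chaperonin, and under each scaling 19 exceeded the median of all genes. The ribosomal protein share of the libraries differed in the same way, and its part in these medians was not tested.

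**Figure D4:**
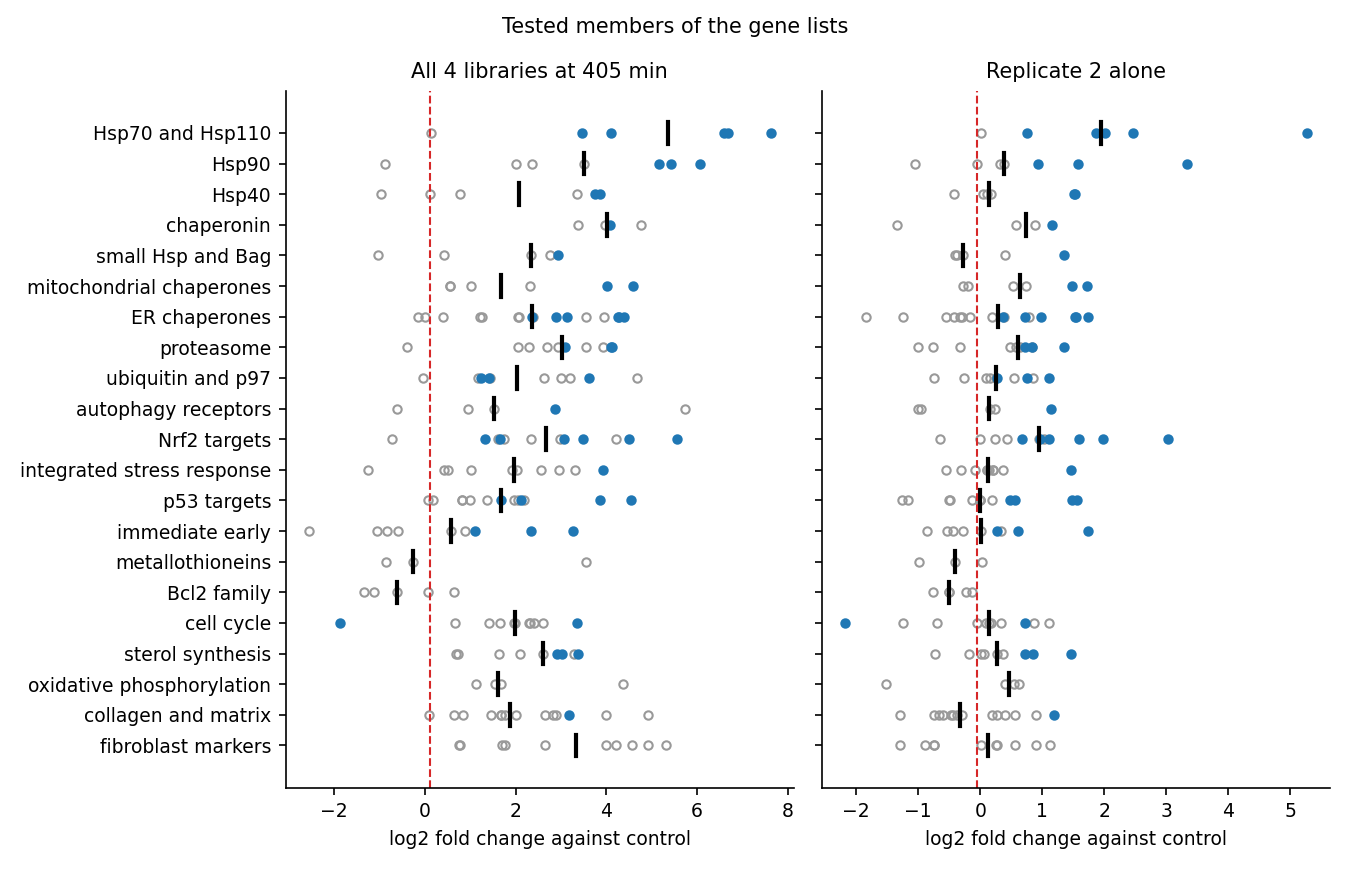
Log2 fold change against control of each tested member of 21 gene lists, with all 4 libraries at 405 min (left) and 405 min replicate 2 alone (right). Filled points are genes separate from every control in all 4 libraries, black bars are list medians, and the dashed line is the median of all 5030 tested genes. The Hsp70 and Hsp110 median is 5.35 on the left and 1.94 on the right, and 19 of 21 medians on the left are above 0, beside 2 with ribosomal protein fragments as library size (not drawn).

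The genes below every control were separated by less. C030034I22Rik, a gene of no assigned function, had the widest separation, at 6.83, 21.9, 7.34 and 1.95 CPM in the treated libraries against 114.2, 55.1, 68.8 and 203.4 (log2 fold change -3.65, SE 1.14, adjusted p = 0.285 by edgeR's quasi-likelihood test). The next were Phf21b, Arap1, Celf4, Csrnp2, Nlgn2, Ccnd3, Trim56, Khnyn, Dlx1, 5430417L22Rik and Il1r1, with gaps of 0.97 to 0.67 and log2 fold changes of -2.33 to -1.26. Nlgn2 encodes a synaptic adhesion protein, Celf4 a splicing regulator and Dlx1 a homeobox factor. Csrnp2 was even in the controls, at 117.4, 125.3, 123.5 and 118.4 CPM, and stood at 68.5, 58.4, 30.6 and 34.9 CPM at 405 min. Ccnd3, a cyclin of G1, stood at 33.6, 14.6, 17.1 and 5.2 CPM against 55.1 to 75.0. Il1r1, the receptor for interleukin 1, stood at 55.7, 67.5, 44.1 and 43.7 CPM against 107.7 to 143.9. In these 3 genes every treated library was under every control, and replicate 2 was not the lowest in any. On the scale of ribosomal protein fragments described below, the 12 genes also lay below every control. So did 17.4% of all tested genes, because that scale moved most genes down, so this is a description only.

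Some genes outside the test had counts in only part of the controls. Those named were required to have at least 10 fragments in every library of the group where they were higher, which fixes their direction, so their values are a description and no count of such genes is given. Ccl2, a chemokine that draws monocytes, was counted at 11911, 263, 3933 and 22230 fragments against 35, 60, 8 and 0. U05342 was counted at 123, 15, 98 and 2599 fragments and at 0 in every control. 5430416N02Rik, Gm1821 and Stard3nl also lay above every control. Downwards, Lemd1, Mup4 and Epgn were counted at 10 to 76 fragments in each control and at most 28 in any treated library.

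Some genes, picked after the values were seen, were listed at 0 in all 4 tables of 405 min with at least 5 fragments in every control. Among them were the ribosomal RNA precursor Rn45s (6828 to 11101 fragments in the controls), Arhgap21 (64 to 117), Filip1l (17 to 49) and Ren1 (8 to 27). The table of 45 min replicate 1 listed 95747 for Rn45s and 3869 for Filip1l. A 0 in deep and shallow tables alike can be a failed estimate, so no direction is given for these genes.

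Since ribosomal protein genes took up more of 3 treated libraries, the comparison was repeated with counts per 1000 ribosomal protein fragments. On this scale the median log2 fold change of all genes moved from 0.11 to -2.25, a shift of -2.36, and 17 genes (0.338%) lay above every control and 877 (17.4%) below. Under both scalings 12 genes lay above (0.239%) and 135 below (2.68%). The 12 were Hspa1b, Hsp90aa1, Hsph1, Hspa8, Hsp90ab1, Hspd1 and Hsp90b1, which are chaperones, Fth1 and Prdx1, and Npm1, Tpt1 and Snhg5, a nucleolar chaperone gene, a translationally controlled gene and a small nucleolar RNA host gene. All 12 were also called by DESeq2, beside 404 of all 5030 tested genes (8.03%). Hspa1b, Hsp90aa1, Hsph1 and Hspa8 were called by edgeR's exact test, beside 0.239% of all tested genes. The 12 were chosen from the same libraries, so these calls are a description and no separate evidence. Per 1000 ribosomal protein fragments, Hspa1b stood at 41.8, 142.4, 237.4 and 68.7 in 405 min replicates 1 to 4 and at 4.59, 4.03, 8.39 and 4.94 in the controls. Its lowest treated library was thus 4.99 times its highest control, and replicate 2 was above replicates 1 and 4. Hsp90aa1 stood at 173.3, 269.6, 341.0 and 228.8 against 39.9, 36.7, 47.0 and 21.2, a ratio of 3.68. Fth1 stood at 82.1, 130.6, 114.3 and 104.5 against 14.8, 32.9, 10.4 and 12.2, with a ratio of 2.49. For Fth1 the 4 treated libraries agreed within a factor of 2, replicate 2 included. The other 9 had ratios of 1.17 to 1.61, and for Hsph1 and Hspa8 they were 1.37 and 1.33. In CPM the ratio was smallest for Snhg5, at 1.09, with 17 fragments both in 405 min replicate 2 and in control replicate 2. It was 1.18 for Hsp90ab1 and 1.25 for Tpt1. Genes above every control on the ribosomal scale alone included Cct2, Eef1a1, Pabpc1 and Rpl4, of which Rpl4 is itself part of the scale.

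**Figure D5:**
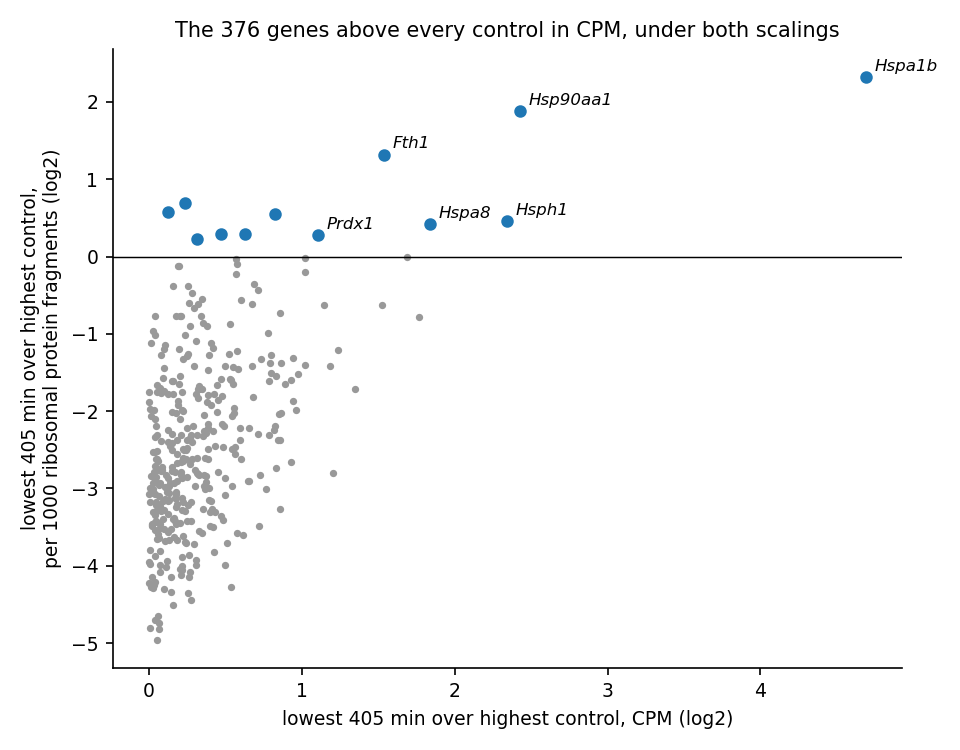
For the 376 genes above every control in CPM, the log2 ratio of the lowest 405 min library to the highest control in CPM (horizontal) and per 1000 ribosomal protein fragments (vertical). The 12 blue points above the line are separate on both scales, with Hspa1b furthest out, and the remaining 364 are not separate per 1000 ribosomal protein fragments.

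The leading genes were also set beside their levels at the earlier times on the same scale. Per 1000 ribosomal protein fragments, Hspa1b ranged from 0.858 to 12.5 at 45 min and from 7.26 to 28.6 at 135 min, so that no library of either time reached the lowest at 405 min, 41.8. Hsp90aa1 ranged from 29.5 to 33.9 at 45 min, inside the control range, from 57.7 to 103.3 at 135 min, and from 173.3 to 341.0 at 405 min. On this scale its groups of 45, 135 and 405 min did not overlap, and the 45 min libraries lay within 21.2 to 47.0, the control range. Hsph1 ranged from 1.17 to 17.8 at 45 min and from 3.04 to 18.2 at 135 min, and its lowest library at 405 min, 12.7, lay inside both. Fth1 ranged from 9.16 to 71.2 at 45 min and from 17.2 to 111.5 at 135 min, so its levels at 405 min overlapped those at 135 min. The libraries of these times also differed in composition. Ribosomal protein genes held 8.34%, 9.42%, 0.408% and 0.423% of fragments in 45 min replicates 1 to 4. At 135 min these shares were 8.48%, 6.17%, 0.580% and 0.435%. Fth1 stood at 71.2, 52.5, 9.16 and 10.6 in 45 min replicates 1 to 4. At 135 min it stood at 74.1, 111.5, 18.8 and 17.2. The part of composition in these ranges was not tested. In CPM, by contrast, the levels of each of these genes at 405 min overlapped those at 135 min. Hspa1b reached 5008 CPM at 135 min, above its lowest library at 405 min, 1814. Hsp90aa1 ranged from 173.3 to 6660 CPM at 45 min, from 375.8 to 18074 at 135 min and from 3435 to 42452 at 405 min. Its highest control was at 638.3 CPM, so the order of times depended on the scale. Per 1000 ribosomal protein fragments, levels at 45 and 405 min did not overlap for Hspa1b, Hsp90aa1, Fth1, Hspd1 and Hsp90ab1. They overlapped for the rest of the 12 genes above under both scalings, which were Hsph1, Hspa8, Prdx1, Npm1, Hsp90b1, Tpt1 and Snhg5. These times share the controls and are given as levels, with no test.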

How the data were processed

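Estimated counts (raw fragments) of 23356 genes were read from the Cuffdiff tables that the authors deposited for each library. Their FPKM and scaled columns were not used here. The labels name total RNA and the Encore Complete kit of NuGEN. The study's methods name mm9, RefSeq genes and edgeR, while the submitters' processing notes name mm10. Between 98.9% and 99.8% of values were whole within 0.01, and all were rounded. The 27 symbols that had turned into dates in 1 of the tables were restored from row order. Groups came from the sample titles. Genes were tested by quasi-likelihood in edgeR (version 4.0.16 under R 4.3.3), with TMM scaling, on all 16 libraries, so that the groups shared 1 estimate of the spread (12 residual degrees of freedom, common dispersion 0.625). A count in each library was required (5030 genes, 21.5%), with Benjamini-Hochberg adjustment at 0.05. Standard errors were derived from the fold change and its F statistic. CPM used the TMM-scaled total of the tested genes, and a pseudocount of 1 was added before logs, which understates changes of low genes. The fit was run on simulated data, but recovery of changed genes was required only at a dispersion below that of these data. It therefore does not show how many changes the test could miss here. No pair of libraries held identical values.

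The genes named were the 12 with the largest gap in each direction, up to 4 separate tested members per list by gap (the first 2 tested where none was separate), up to 6 untested genes per direction with at least 10 counts in every library of the higher group, and a panel of stress genes. Separate list members named without values, genes shared with other tests or scalings, and genes listed at 0 were named for their counts. Some genes are not reported here. Members and lists were chosen with earlier results of these data known. The alternatives were RLE size factors, ribosomal protein fragments as library size, other filters, a fit of the 8 libraries, DESeq2 1.42.0, edgeR's exact test, thinning to 769641 fragments, replicate 2 alone, the share as a covariate, the replicate block and leaving out each library. The overlap of both scalings was added after the data had been seen. Intervals are Wilson's. Intervals and floors cover counting error only, since PCR copies are not independent molecules. A count of 0 allows up to 3 counts, that is 3.37 to 3.48 fragments in 1000000 in the controls and 0.151 to 3.90 at 405 min.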

Additional observations from a re-analysis of the deposited data

Results flagged for a closer look

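In 9 of 176 groups of 4 libraries (81 named genes and 7 measures of the library, each in both groups), 1 library lay far from the other 3, each time for a gene in log2(CPM + 1), where chance alone flags about 1 in 20 such groups, or 8.8. Control replicate 4 was low for Rlim (4.27, the others 6.29 to 6.59), Calu (5.93, the others 6.37 to 6.43), Stip1 (4.61, the others 4.90 to 4.96) and Psma3 (1.42, the others 5.08 to 5.81). Control replicate 3 was low for Dnajb9 (3.91, the others 5.36 to 5.58), and control replicate 1 for Trp53inp1 (5.76, the others 6.09 to 6.12). Control replicate 2, which had the highest ribosomal protein share of the controls, was high for Postn (7.06, the others 5.19 to 5.43). At 405 min, replicate 2 was low for Nars (7.42, the others 9.99 to 10.4) and replicate 4 for Arap1 (2.80, the others 4.45 to 4.74). Control replicate 4 also had the most genes at 0 of the controls, 27.7% beside 6.71% to 16.4%. Whether this played a part in its flags was not tested.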

How the results depend on the processing

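The count of 0 called genes in either direction by edgeR's quasi-likelihood test held with RLE factors, ribosomal protein fragments as library size, the 8-library filter, the 8-library fit, thinning, the covariate and each of the 8 fits that left out 1 library. Called genes were 12 higher with edgeR's exact test, 404 higher with DESeq2, and 1 higher (Hspa1b) with 405 min replicate 2 alone. Without a filter, and with filterByExpr, 1 gene was lower, Arhgap21, which is listed at 0 in every treated table. Before adjustment (p under 0.05) the 728 higher and 76 lower genes moved in one or both counts, to 5 and 261 with ribosomal protein fragments as library size, 67 and 62 with the covariate, 1165 and 220 with the 8-library fit, 1158 and 20 with the 8-library filter, 1869 and 12 with filterByExpr, 1984 and 80 with no filter, 989 and 301 with thinning, 897 and 256 with DESeq2, and 36 and 44 with 405 min replicate 2 alone. Both stayed within 1.5 times at 610 and 114 with RLE factors, 845 and 97 with the exact test and 786 and 74 with the replicate block. Without 1 library they were 324 to 930 and 8 to 292, with 446 and 47 without control replicate 1, 410 and 48 without control replicate 3, 437 and 34 without control replicate 4, 472 and 15 without 405 min replicate 1, 930 and 292 without 405 min replicate 2, and 324 and 8 without 405 min replicate 4. Genes above and below every control numbered 17 and 877 with ribosomal scaling, 996 and 836 with filterByExpr, 1016 and 866 with no filter, 602 and 546 with the 8-library filter, where more genes were tested in each of these 3, 753 and 847 with replicate 2 alone, where CPM was rescaled over 5 libraries, and 12 and 135 under both scalings. The replicate numbers did not pair the libraries: same-numbered 405 min and control libraries correlated in their deviations at -0.03, -0.31, 0.01 and -0.10. With the replicate block 0 genes were called, and 810 were higher and 735 lower in all 4 same-numbered pairs. Leaving out 1 library gave 386 to 1202 genes above and 292 to 833 below, with 1202 and 833 without 405 min replicate 2 and 677 above without control replicate 2. The difference in ribosomal protein share, 4.48 percentage points, ranged from 3.33 to 5.89 when 1 library was left out, the latter without 405 min replicate 2 (exact permutation p = 0.0286). Replicate 2 was the only treated library inside the control range. Leaving it out separates the groups by choice, so that p is not a result.

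Log2 fold changes of named genes that changed sign, with the cause not tested, were as follows. With ribosomal protein fragments as library size, where the median of all genes was -2.25, they were Hspb8 -0.37, Psmd12 -0.52, Zfand2a -0.086, Zfand3 -1.35, Zfand5 -1.53, Tax1bp1 -0.26, Trp53inp1 -1.36, Gtse1 -0.97, Me1 -1.20, Mt2 -0.11, Jun -0.86, Klf4 -1.63, Mcl1 -2.26, Cdk4 -0.27, Cyp51 -0.47, Sc5d -0.57, Ndufb5 -2.07, Sdha -1.89, Dnajb1 -0.35, Bag3 -1.09 and Cdkn1a -1.54. With log2 ribosomal protein share as a covariate they were Psmd12 -0.82, Zfand5 -0.0037, Klf4 -0.60, Postn -0.26, Ndufb5 -1.56, Sdha -0.50, Vim -0.17 and Col1a1 -0.23. With replicate 2 alone they were Mt2 -0.99, Mcl1 -0.13, Ndufb5 -1.51, Bag3 -0.28 and Cdkn1a -0.010. Depth and the share of genes at 0, which decides what was tested, did not go together: controls of 861482 to 891245 fragments had 6.71% to 27.7% of genes at 0, and 405 min replicate 4, the deepest treated library, had 43.1%.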
